A study of Arabidopsis thaliana with 21 samples.

Results

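The effect of the asil1-1 allele was examined in late heart embryos of Arabidopsis thaliana, over the Columbia libraries that carry it and those that do not. The 6 libraries with asil1-1 comprised 3 of the double mutant asil1-1 asil2-1 and 3 of the single mutant asil1-1. The 6 libraries without it comprised 3 of the single mutant asil2-1 and 3 of the wild type Columbia-0 (Col-0). These 12 libraries, of 21 in the series, were chosen by genotype label alone. The other 9 are 3 each of asil1-1 asil2-2 (mixed Columbia-0 and Landsberg erecta background), asil2-2 (Landsberg erecta) and the wild type Landsberg erecta (Ler), and serve for a further comparison of asil1-1. The asil2-1 label entered as a covariate, and libraries with and without that label are present on both sides. Embryos were dissected by hand from plants grown in soil. The replicates are described as biological with no word on separate plants or days, so p-values measure the spread between these samples. In Columbia each gene is represented by 1 mutant allele, of undescribed lesion, so a change can belong to the line as well as to the gene.

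ASIL1 and ASIL2 encode trihelix proteins, plant DNA-binding factors of the family that recognises GT elements. ASIL1 is known as a repressor of seed maturation genes, which include those for storage proteins and oil body proteins, before and after the embryo matures. At the late heart stage the cotyledons emerge, the root and shoot poles are set up through auxin transport and the PLETHORA, WOX and SHORTROOT factors, and the maturation programme has barely begun.

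Total counts ran from 4.14 M to 8.05 M (1000000 counts) per library. Replicate 1 of asil1-1 asil2-1 stood apart. In it the locus AT5G18610 took 45.7% of all counts, leaving 2.25 M for all other loci, and its log2 CPM correlated with the other 11 libraries at 0.749 to 0.76 across genes, against 0.96 to 0.981 among those 11. In the other 11 no locus took more than 3.01%. The main effect is therefore given over 12 libraries and over the 11 without this replicate, and values by asil2-1 label and for gene lists are over 11 unless stated. CPM are counts per M counts after TMM scaling over the 12 libraries.

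ASIL1 (AT1G54060, chromosome 1, 20180610 to 20182374, TAIR10.1, plus strand) measured 2.79, 3.05 and 5.15 CPM in asil1-1 asil2-1 and 1.84, 1.81 and 1.26 CPM in asil1-1. It measured 45.2, 35.2 and 38.1 CPM in asil2-1 and 34.6, 36.4 and 38.9 CPM in Col-0. Every library labelled asil1-1 was below every library without the allele, and the log2 fold change was -3.88 ± 0.22 (SE) over 12 libraries and -3.85 ± 0.20 over 11. ASIL1 thus lay 14.7-fold lower, and a remainder of reads was counted in all 6 libraries with the allele. The fall was -4.48 ± 0.21 in asil1-1 over Col-0 and -3.24 ± 0.21 in asil1-1 asil2-1 over asil2-1 in the 11 libraries, a difference of 1.24 with an unadjusted p of 0.00173 by edgeR's quasi-likelihood test (adjusted p = 0.221). ASIL2 (AT3G14180) ranged from 43 to 60.3 CPM with asil1-1 (median 54.7) and from 36.8 to 55.1 CPM without it (median 47.3), and the groups overlapped. By genotype it averaged 50.5 ± 8.87 CPM in asil1-1 asil2-1 and 56.1 ± 2.98 CPM in asil1-1, and 41 ± 5.58 CPM in asil2-1 and 50.2 ± 4.24 CPM in the Col-0 libraries (± SD of 3). Single libraries with and without the asil2-1 label overlapped in both pairs, so the level of ASIL2 RNA does not check that label, and asil2-1 below means the libraries so labelled. With asil1-1 over without, its log2 fold change of 0.27 ± 0.09 over 11 libraries did not pass the test (adjusted p = 0.287).

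Over all 12 libraries 4 of 17659 tested models passed edgeR's quasi-likelihood test (Benjamini-Hochberg adjusted p under 0.05), 3 higher (0.017% of models) and 1 lower (0.00566%) with asil1-1. That is 0.0227% of the models tested, and 1218 models (6.9%) had an unadjusted p under 0.05. Over 11 libraries 56 of 17866 models passed, which is 0.313%, with 49 higher (0.274%) and 7 lower (0.0392%) and 1910 models (10.7%) at an unadjusted p under 0.05. All 4 were among the 56. All 56 had the same direction over 12 libraries, which share 11 libraries with the smaller set, and 51 of them an unadjusted p under 0.05 there. In 26 of the 56 genes no library with asil1-1 overlapped the libraries without it over 12 libraries, and in 46 over 11, against 0.753% and 1.29% of all tested models. The test chose these genes for such a separation, so these counts describe them only.

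**Figure D1:**
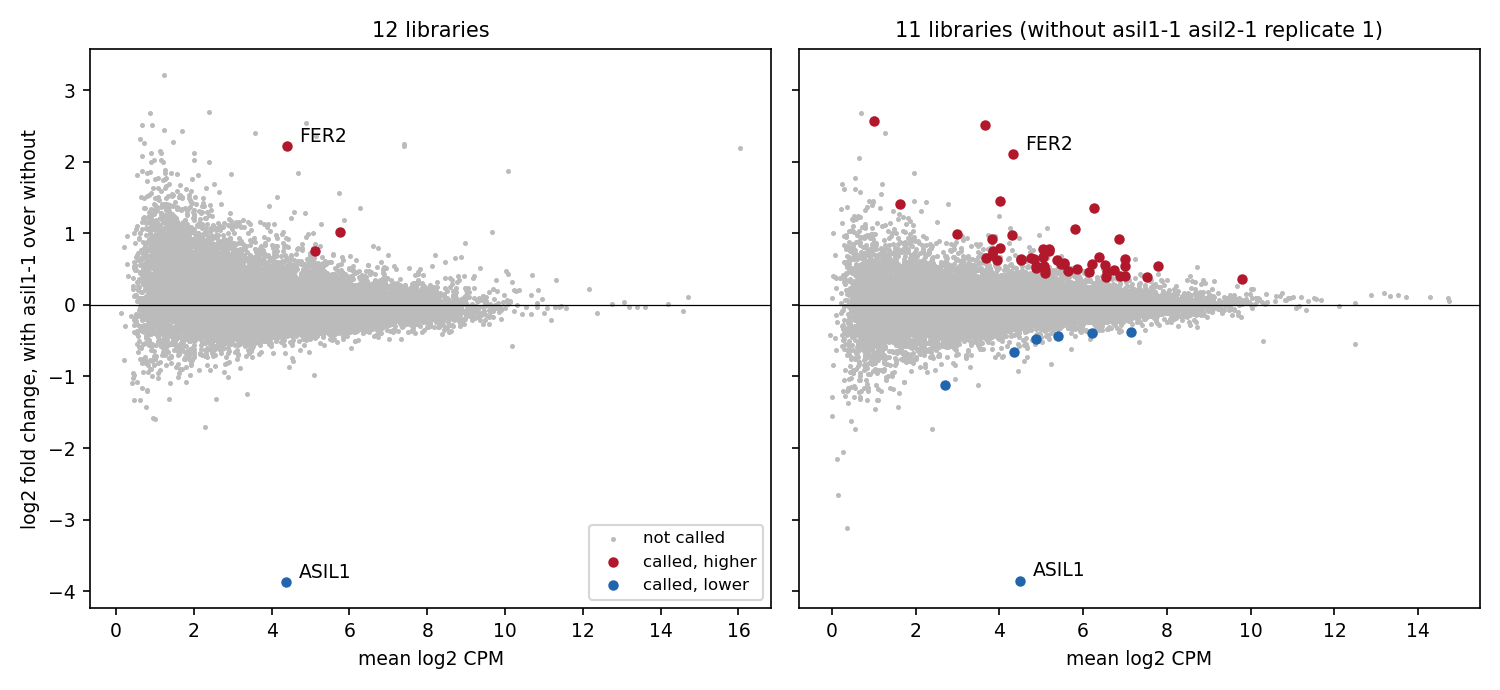
Mean log2 CPM of each tested model (horizontal axis) against its log2 fold change with asil1-1 over without (vertical axis), over 12 libraries on the left and over 11 on the right. Coloured points passed an adjusted p of 0.05: 4 on the left and 56 on the right, of which 49 lie above 0.

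FER2 (AT3G11050, chromosome 3, 3463477 to 3465506, plus strand) encodes a ferritin, an iron storage protein of plastids that is found in seeds. It measured 46.2, 30.3 and 28.4 CPM in asil1-1 asil2-1, 34.9, 28.9 and 36.8 CPM in asil1-1, 7.31, 6.32 and 6.25 CPM in asil2-1 and 8.93, 6.84 and 8.16 CPM in Col-0. The lowest library with asil1-1 was above the highest without it. FER2 averaged 34.2 ± 6.74 CPM with asil1-1 and 7.3 ± 1.06 CPM without it (SD, n = 6 each), a log2 fold change of 2.22 ± 0.15 over 12 libraries (adjusted p = 8.30e-06). It was 4.66-fold higher over 12 libraries and 4.30-fold higher over 11 (adjusted p = 3.66e-08). The rise was 2.08 ± 0.16 in asil1-1 over Col-0 and 2.13 ± 0.17 in asil1-1 asil2-1 over asil2-1. Of the iron storage and transport list, 13 of 22 members were tested and FER2 alone was called. The median of the list was -0.11 over 12 libraries, against 0.01 for all tested models, and -0.03 over 11, against 0.00. The other ferritins had log2 fold changes of -0.16 (FER1, a leaf ferritin), -0.08 (FER3) and 0.05 (FER4), and VIT1, the vacuolar iron importer of the embryo, of -0.44. Their adjusted p ran from 0.346 to 0.934.

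TBL38 (AT1G29050, chromosome 1, 10136246 to 10139228, minus strand) belongs to the TRICHOME BIREFRINGENCE-LIKE family, whose members set the acetylation of cell wall polysaccharides. It measured 64.9, 68.3 and 63.9 CPM in asil1-1 asil2-1, 71.6, 77 and 83.4 CPM in asil1-1, 34.9, 50.6 and 44.9 CPM in asil2-1 and 27.2, 28.7 and 29.5 CPM in Col-0. All 6 libraries with asil1-1 lay above the 6 without it, and the single mutant and Col-0 lay farthest apart. The log2 fold change was 1.02 ± 0.15 over 12 libraries (adjusted p = 0.0430) and 1.06 ± 0.14 over 11 (adjusted p = 0.00265). It was 1.44 ± 0.13 in asil1-1 over Col-0 and 0.61 ± 0.13 in asil1-1 asil2-1 over asil2-1, a difference of -0.83 with an unadjusted p of 3.82e-04 and an adjusted p of 0.129, the lowest among the 56.

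AT4G40000 (chromosome 4, 18543893 to 18547556, minus strand) encodes an S-adenosyl-L-methionine-dependent methyltransferase superfamily protein. It measured 34.6, 42.1 and 41.8 CPM in asil1-1 asil2-1, 49.5, 44 and 44.9 CPM in asil1-1, 20.7, 27.3 and 25.1 CPM in asil2-1 and 26.1, 24.7 and 29.3 CPM in Col-0. The groups did not overlap, and the rise was nearly the same with and without the asil2-1 label, 0.79 ± 0.12 in asil1-1 over Col-0 and 0.78 ± 0.13 in asil1-1 asil2-1 over asil2-1. The log2 fold change was 0.75 ± 0.10 over 12 libraries (adjusted p = 0.0198) and 0.79 ± 0.09 over 11 (adjusted p = 6.72e-04). ASIL1 and FER2 stayed called when any 1 of the 12 libraries was left out. TBL38 and AT4G40000 were each lost in 10 of these 12 fits and stayed called without asil1-1 asil2-1 replicate 1 or asil2-1 replicate 2. A replicate block also ended both calls over 12 libraries (adjusted p = 0.0749 and 0.0644). Over 11 libraries all 4 genes stayed called with the block and in all 11 fits that left out a further library from the 11.

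The 250 bases upstream of the annotated starts of TBL38 and AT4G40000, the rises of the 12-library fit whose window lies outside any other annotated gene, are given from the RefSeq assembly TAIR10.1, with the gene's own strand read 5′ to 3′. Capitals mark a match, on either strand, to a GT-1 box (GGTTAA), an RY element (CATGCA, bound by maturation factors of the B3 family) or a G-box (CACGTG). The window of FER2 lies within the neighbouring gene AT3G11040 and is not printed. It holds 1 GT-1 box, on the other strand, at position -211 from the start.
TBL38, chr1:10139229-10139478, minus strand: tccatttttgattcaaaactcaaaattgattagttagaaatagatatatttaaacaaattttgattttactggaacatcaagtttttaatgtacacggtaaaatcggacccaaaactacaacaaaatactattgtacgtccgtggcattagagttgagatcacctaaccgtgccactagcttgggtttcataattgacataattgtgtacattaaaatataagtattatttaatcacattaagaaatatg
AT4G40000, chr4:18547557-18547806, minus strand: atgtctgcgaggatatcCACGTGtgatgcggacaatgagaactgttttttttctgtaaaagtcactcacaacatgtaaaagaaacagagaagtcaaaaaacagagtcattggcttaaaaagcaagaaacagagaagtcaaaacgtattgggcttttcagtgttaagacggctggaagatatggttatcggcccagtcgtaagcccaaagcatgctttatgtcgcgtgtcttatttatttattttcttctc
TBL38 held none of these letters in this window. AT4G40000 held 1 G-box, whose first base is at position -233 from the start. Over all 48 nuclear genes that rose in the 11 libraries, GGTTAA was present upstream of 8 (16.7%), against 14.6% of 27443 nuclear protein-coding genes. CATGCA was present upstream of 4 (8.33%), against 8.43%, and CACGTG upstream of 2 (4.17%), against 6.49%.

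**Figure D2:**
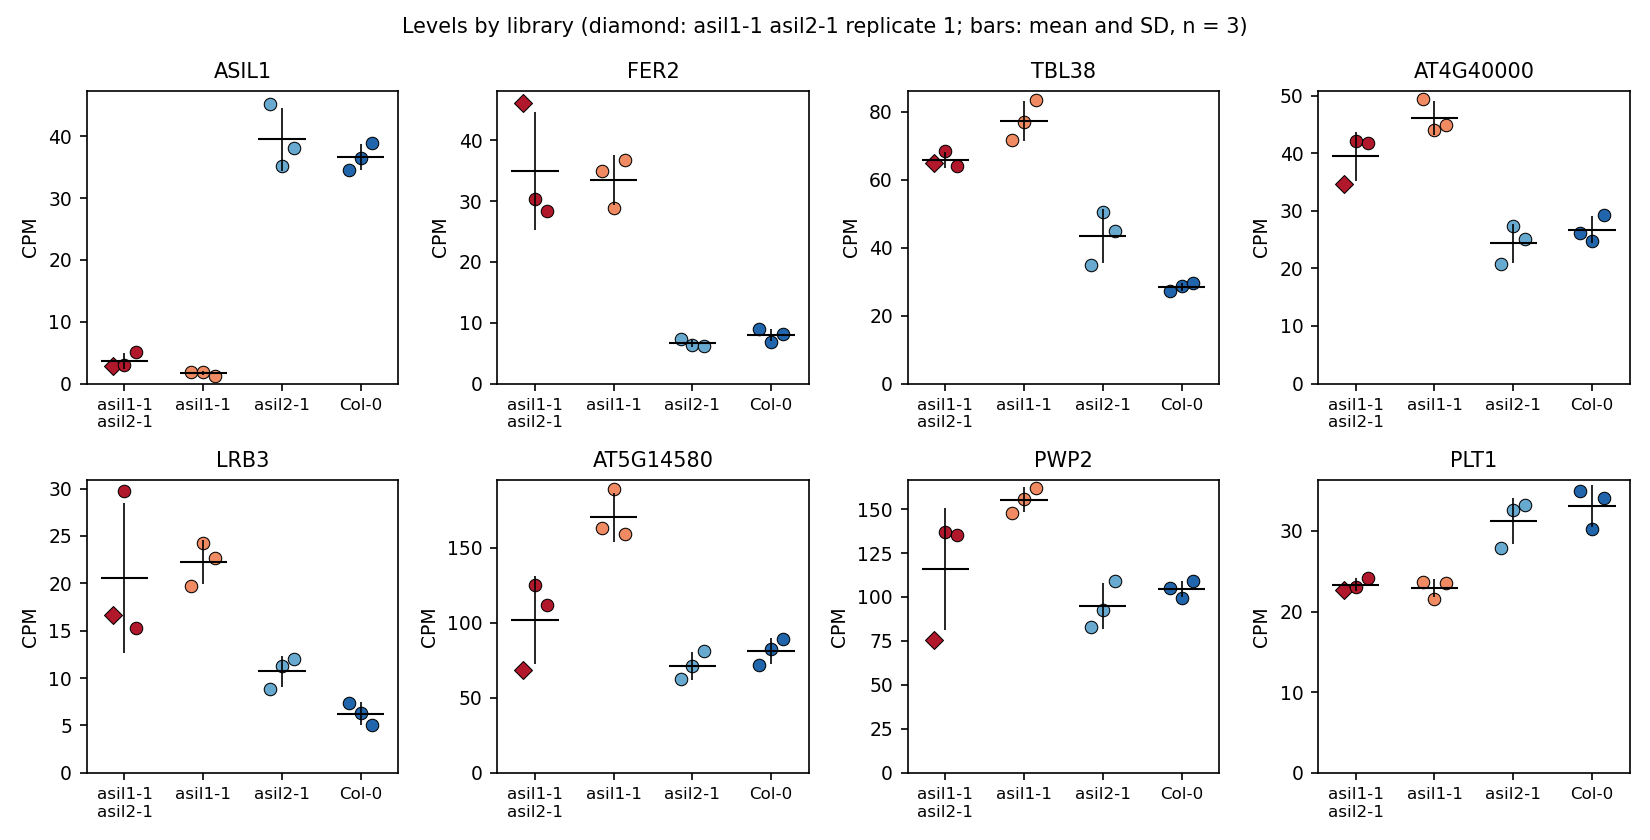
CPM of 8 genes in each of the 12 libraries, by genotype, with the mean and SD of 3 replicates. The diamond is asil1-1 asil2-1 replicate 1. For FER2 it lies above the other libraries carrying asil1-1 and for AT4G40000 below them, in both cases above all libraries without the allele, and for PWP2 it lies below all libraries without the allele.

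The 49 genes that rose over 11 libraries had log2 fold changes of 0.36 to 2.56 with a median of 0.63, and 7 exceeded 1. AT2G47670, the pectin methylesterase inhibitor PMEI6 of the seed coat, measured between 1.43 and 3.39 CPM with asil1-1 (median 2.72) and between 0.152 and 0.657 CPM without it (median 0.427). Its groups did not overlap, yet each library without asil1-1 held only 1 to 4 counts. That is under the low-count filter's minimum of 10, so the gene was tested only through its counts in libraries with asil1-1. Its separation and its call rest in part on that choice. Its log2 fold change was 2.56 ± 0.40 over 11 libraries (adjusted p = 0.0124) and 2.51 ± 0.42 over 12 (adjusted p = 0.0935). AT1G62060, an uncharacterized gene on chromosome 1, ranged from 9.7 to 30.6 CPM with asil1-1 and from 1.07 to 10.3 CPM without it, so that asil2-1 replicate 2 reached above the lowest library with the allele. It rose by 2.51 ± 0.43 over 11 libraries (adjusted p = 0.0191).

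LRB3 (AT4G01160), a BTB/POZ domain protein of a family that serves as ubiquitin ligase adaptors, measured 15.3 to 29.7 CPM with asil1-1 and 5.02 to 12 CPM without it, with no overlap. Its log2 fold change was 1.46 ± 0.20 over 11 libraries (adjusted p = 0.00294) and 1.38 ± 0.22 over 12 (adjusted p = 0.0674). ATPMEPCRD (AT2G43050), of the pectin methylesterase inhibitor superfamily, rose by 1.35 ± 0.25, with 77.6 to 132 CPM in libraries with asil1-1 and 16.8 to 76.4 CPM in those without it. MAN1 (AT1G02310), an endo-beta-mannanase that cleaves mannan, rose by 1.41 ± 0.28, with 2.78 to 4.73 CPM and 1.00 to 2.37 CPM. The groups of both genes were separate, by a narrow gap for ATPMEPCRD. MAN1 held 5 to 12 counts per library without asil1-1, near the low-count filter's minimum of 10. MAN1 was called in 0 of 11 fits that left out a further library from the 11 (adjusted p up to 0.137), and ATPMEPCRD in 5. The remaining named rises were AtPOT1b (AT5G06310), of the telomere-binding POT1 family, by 0.99 ± 0.17, AT3G09140, of unknown function, by 0.98 ± 0.17, AT1G13810, a type II restriction endonuclease-like protein, by 0.92 ± 0.13, AT4G37660, of a ribosomal protein L12 and ClpS family, by 0.80 ± 0.15, and AT5G64680, a mediator-associated protein, by 0.77 ± 0.10. When a further library was left out of the 11, LRB3, AT1G13810 and AT5G64680 stayed called in 11 of 11 fits, AT2G47670 in 10, AtPOT1b in 8, AT1G62060 in 7, AT3G09140 in 6 and AT4G37660 in 4.

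Of the genes in this and the next paragraph, all but RUG3 and AT5G14580 were chosen for naming after their values were seen. AT5G14580 encodes a polyribonucleotide nucleotidyltransferase, an enzyme that trims RNA in organelles. It measured 68.5, 125 and 112 CPM in asil1-1 asil2-1, 163, 189 and 159 CPM in asil1-1, 62.4, 70.9 and 81 CPM in asil2-1 and 72.1, 82.3 and 89.2 CPM in Col-0. Replicate 1 of asil1-1 asil2-1 lay within the range of the libraries without asil1-1, and the other 5 above it. The log2 fold change was 0.92 ± 0.09 over 11 libraries (adjusted p = 2.04e-04) and 0.80 ± 0.15 over 12 (adjusted p = 0.164). It stayed called in all 11 fits that left out a further library. RUG3, a factor for splicing in mitochondria, rose by 0.63 ± 0.12 and stayed called in 2 of those 11 fits. Smaller rises were those of the RNA editing factors MORF4 and MORF6 by 0.49 ± 0.10 and 0.57 ± 0.10, the ribosomal protein L13 family gene AT3G01790 by 0.59 ± 0.09, and PHB2, a prohibitin of the mitochondrial inner membrane, by 0.48 ± 0.07. The mitochondrial genome model ATMG00160 rose by 0.36 ± 0.06, with 458, 934 and 848 CPM in asil1-1 asil2-1, 1000, 1050 and 1030 CPM in asil1-1, and 717 to 798 CPM in the 6 libraries without asil1-1. Replicate 1 of asil1-1 asil2-1 was the lowest of all 12.

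Of the 15 genes of the organelle RNA list RUG3 alone was called, and the list's median was -0.03 over 11 libraries and 0.07 over 12. Models annotated as pentatricopeptide repeat proteins, RNA-binding proteins of organelles, were higher in 99 of 241 (41.1%) with a median of -0.05 over 11 libraries, against 49.8% of all tested models, and in 146 of 240 with a median of 0.08 over 12. Those of the mitochondrial genome were higher in 69 of 89 over 11 libraries, with 1 call and a median of 0.09, against a median of 0.22 over 12 libraries. This median was 0.26 in asil1-1 over Col-0, -0.13 in asil1-1 asil2-1 over asil2-1 and, with 29 of 92 higher, -0.20 in asil1-1 asil2-2 over asil2-2. PWP2 (AT1G15440) and AT4G30150 (Urb2/Npa2 family), known in yeast for ribosome assembly in the nucleolus, rose by 0.55 ± 0.07 and 0.64 ± 0.08. PWP2 measured 148 to 162 CPM in asil1-1 and 75.6, 137 and 135 CPM in asil1-1 asil2-1, against 82.9 to 109 CPM without asil1-1. Models annotated with nucleolar, rRNA processing, ribosome biogenesis or U3 terms were higher in 22 of 35, with a median of 0.03. Over 12 libraries 25 of 35 were higher, with a median of 0.06.

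**Figure D3:**
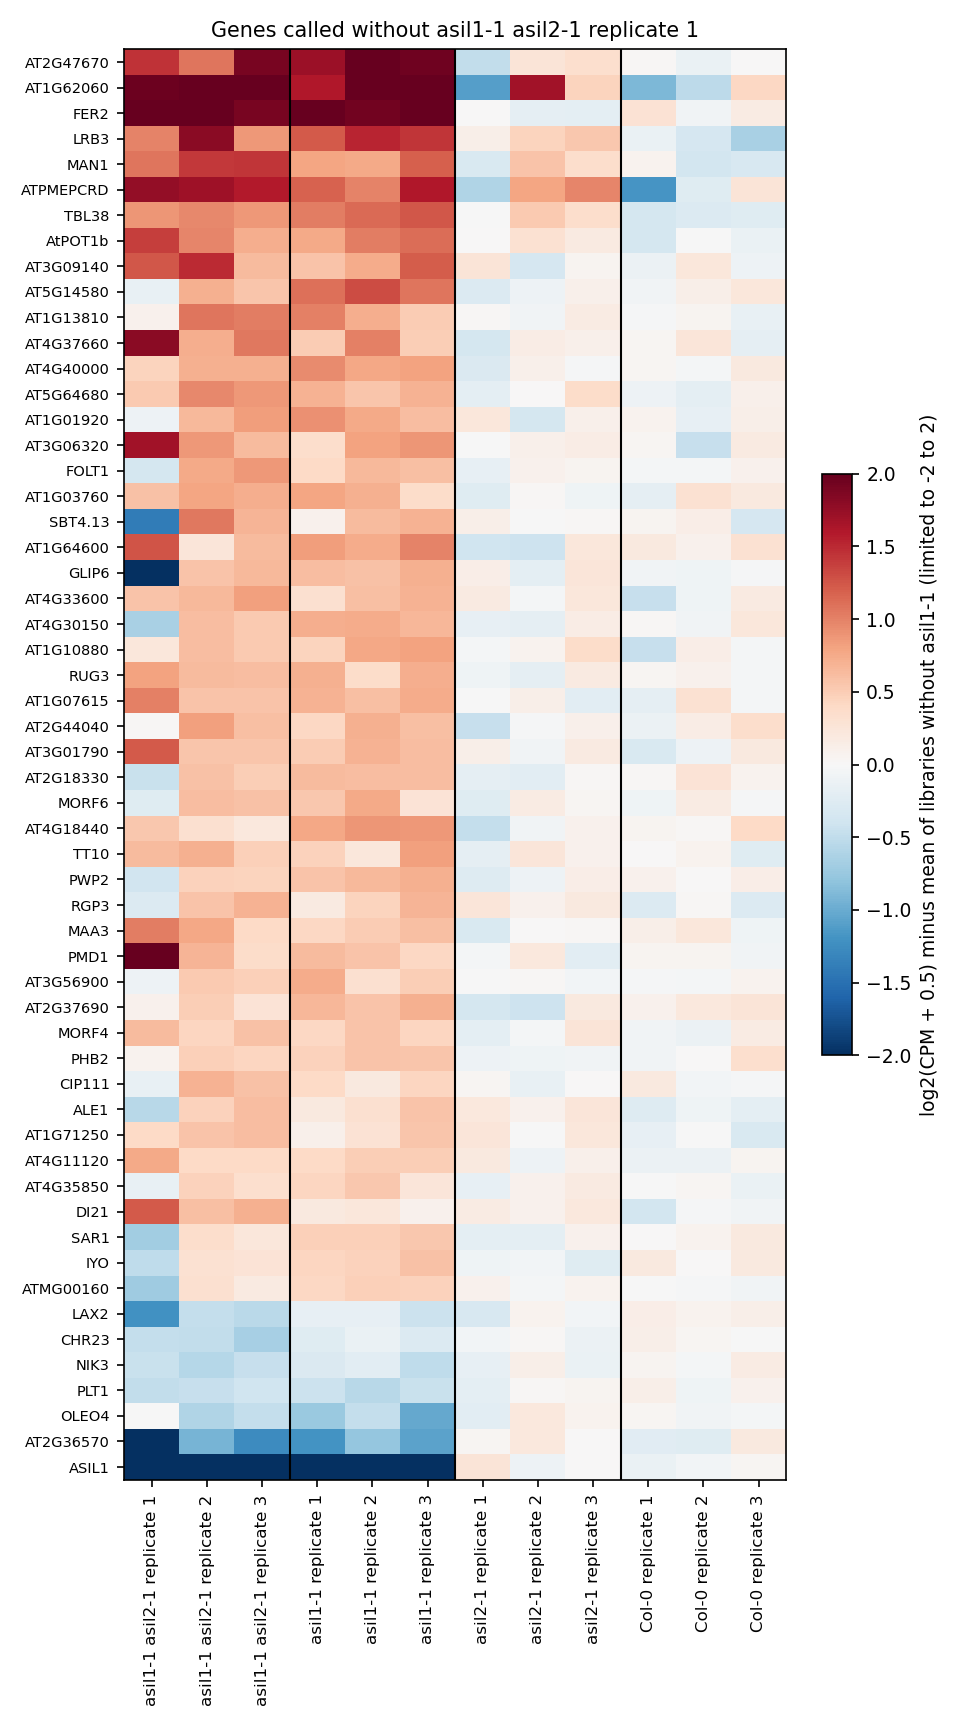
The 56 genes called over 11 libraries (rows, ordered by log2 fold change) in the 12 libraries (columns). Colour gives log2(CPM + 0.5) minus the mean of the 6 libraries without asil1-1, limited to -2 and 2. The first column, asil1-1 asil2-1 replicate 1, departs from the other carriers for genes such as GLIP6, SBT4.13 and PMD1.

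In replicate 1 of asil1-1 asil2-1, some of the 56 genes lay far from the other libraries with asil1-1. GLIP6, a GDSL lipase, measured 0 CPM there, 14.2 and 15 CPM in the other replicates of that genotype, 14.4 to 15.7 CPM in asil1-1 and 8.1 to 11.2 CPM in the libraries without the allele. PMD1, a protein of organelle division, measured 168 CPM there and 29.5 to 37.1 CPM in the other 5 libraries with asil1-1, against 19.6 to 26.7 CPM in those without it. Both genes are named after their values were seen. PLT1, also not called over 12 libraries, measured 22.7 CPM in replicate 1 and 21.6 to 24.2 CPM in the other 5 libraries with asil1-1. The part of this replicate in the number of calls over 12 libraries was not tested.

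Besides ASIL1, 6 genes fell over 11 libraries, and none of them passed over 12, where their adjusted p ran from 0.174 to 0.428. Most of these calls rest on the full set of 11 libraries. In the 11 fits that left out a further library, AT2G36570 stayed called in 9, PLT1, OLEO4 and CHR23 in 2 each, and LAX2 and NIK3 in 1 each, with adjusted p up to 0.160. PLT1 (AT3G20840), an AP2-domain factor that specifies the root stem cell niche, measured 22.7, 23.1 and 24.2 CPM in asil1-1 asil2-1, 23.7, 21.6 and 23.5 CPM in asil1-1, 27.9, 32.6 and 33.2 CPM in asil2-1 and 35, 30.2 and 34.1 CPM in Col-0. The groups were separate in all 12 libraries, and the log2 fold change was -0.47 ± 0.09 over both 11 and 12 libraries (adjusted p = 0.0302 and 0.174). LAX2 (AT2G21050), an auxin importer of vascular tissue, measured 64.1, 107 and 102 CPM in asil1-1 asil2-1 and 133, 133 and 111 CPM in asil1-1, against 120 to 163 CPM without asil1-1, so its groups overlapped. It fell by 0.38 on the log2 scale over 11 libraries (SE 0.07, adjusted p = 0.0375).

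OLEO4 (AT3G27660), an oleosin that coats oil bodies, measured 23.1, 15.2 and 16.6 CPM in asil1-1 asil2-1 and 13.7, 16.6 and 11.2 CPM in asil1-1, against 20 to 27.1 CPM without asil1-1. Only replicate 1 of asil1-1 asil2-1 reached that range, and the log2 fold change over 11 libraries was -0.66 ± 0.12 (adjusted p = 0.0301). AT2G36570, a leucine-rich repeat kinase, fell by 1.12 on the log2 scale (SE 0.18), with 0.398 to 4.47 CPM in libraries with asil1-1 and 6.68 to 9.29 CPM in those without it. NIK3, a receptor-like kinase, and CHR23, a SWI/SNF-type chromatin remodeller, fell by 0.43 and 0.39 (SE 0.09 and 0.07).

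The lists for patterning and auxin are read beside the markers of other tissues. All 10 tested seed coat markers (mean sum 796 CPM in 5 libraries with asil1-1 and 565 CPM in 6 without) and 7 of 8 endosperm markers were higher over 11 libraries. Endothelium markers were higher in 0 of 5 (102 and 106 CPM). Embryo markers were higher in 5 of 13 (1400 and 1410 CPM), and many of them, PLT1 included, are members of the patterning list. The part of other tissues in the patterning and auxin lists was not tested. The embryo patterning and meristem list, which holds PLT1, was lower in 35 of 42 tested members over 11 libraries and in 34 of 42 over 12, with medians of -0.21 and -0.23. PLT1 alone was called, and 15 members lower and 1 higher had an unadjusted p under 0.05 over 11 libraries (38.1%, against 10.7% of all tested models). Over 12 libraries they were 7 lower and 1 higher (19%, against 6.9%). Uncalled members included BBM, an embryo identity factor, at -0.43 (adjusted p = 0.0558), SHR, which patterns the root ground tissue, at -0.49 (adjusted p = 0.158), AS1 at -0.33 and MP, the auxin response factor of the embryo axis, at -0.16. WOX8, of the suspensor lineage, was at 0.54 (adjusted p = 0.399). The median was -0.15 in asil1-1 over Col-0 and -0.29 in asil1-1 asil2-1 over asil2-1. The auxin list was lower in 17 of 21 members with a median of -0.32 over 11 libraries, and in 14 of 21 with a median of -0.18 over 12. LAX2 alone was called, and 11 members lower and 2 higher had an unadjusted p under 0.05 over 11 libraries (61.9%). Over 12 libraries they were 7 lower and 1 higher (38.1%). The efflux carriers PIN3 and PIN4 were at -0.40 and -0.36, the synthesis enzyme YUC3 at -0.60 and the importer AUX1 at 0.22, none of them called. The auxin median was -0.35 in asil1-1 over Col-0 and -0.09 in asil1-1 asil2-1 over asil2-1.

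Seed maturation genes were examined because ASIL1 is known for repressing them. None of 16 tested activators was called, among them LEC1 at 0.14, LEC2 at 0.03, FUS3 at 0.08 and ABI3 at -0.20 over 11 libraries. The median of the 16 was 0.08 over 11 libraries and 0.01 over 12. Of 8 storage protein genes 3 passed the filter on low counts and none was called. The cruciferin CRA1 averaged 10.5 CPM in the 5 libraries with asil1-1 and 7.04 CPM in the 6 without it, at a log2 fold change of 0.56 (adjusted p = 0.415). The median of the 3 was -0.30 over 11 libraries and 0.27 over 12. The oil body and storage lipid list had 10 tested members, a median of -0.08 (-0.19 over 12 libraries, with 8 of 10 lower) and OLEO4 as the only call, and OLEO1 was at -0.92 (adjusted p = 0.265). The LEA list had 5 tested members, none called, and a median of -0.25 (-0.09 over 12 libraries). Calls over 11 libraries were 0.313% of all tested models, so 0 calls in lists this short do not show that these genes are unchanged. An unadjusted p under 0.05 in edgeR's quasi-likelihood test over 11 libraries was found for 2 activators higher and 2 lower (25%). For the LEA list they were 2 higher and 1 lower (60%), for storage proteins 1 higher (33.3%) and for oil bodies and storage lipids 2 lower (20%). Of all tested models 10.7% had one.

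Genes of the maternal seed coat were followed because dissected embryos can carry that tissue. Of 16 tested members of the seed coat list 14 were higher over 11 libraries and 10 over 12, with medians of 0.14 and 0.13, and AT2G47670 alone was called. AT2G47670 passed the filter on low counts only through libraries with asil1-1. Over 11 libraries 9 of 16 members were higher in asil1-1 over Col-0 (median 0.01). In asil1-1 asil2-1 over asil2-1 they were 13 of 16 (median 0.27). DP1, of the seed coat outer integument, was at 1.43 (adjusted p = 0.246), the peroxidase PER36 at 1.25 (adjusted p = 0.238) and the mucilage gene MUM4 at 0.53 (adjusted p = 0.111). Of the endothelium and flavonoid list, TT10, a laccase that oxidises flavonoids in the seed coat, rose by 0.55 ± 0.11 over 11 libraries (adjusted p = 0.0366, called in 2 of 11 fits without a further library), with 83.1 to 126 CPM in libraries with asil1-1 and 60.3 to 84.2 CPM in those without it. The groups overlapped, and the median of the 16 tested members was -0.14 over 11 libraries and -0.01 over 12. Over 11 libraries this median was -0.27 in asil1-1 over Col-0 and 0.175 in asil1-1 asil2-1 over asil2-1. The endosperm list was higher in 9 of 10 with a median of 0.25 over 11 libraries, and in 7 of 10 with a median of 0.18 over 12, with no call. Over 11 libraries 6 of 10 were higher in asil1-1 over Col-0 (median 0.03) and 9 of 10 in asil1-1 asil2-1 over asil2-1 (median 0.52).

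Summed over their markers, seed coat RNA stood at 556 to 1020 CPM in the 5 libraries with asil1-1 and 396 CPM in asil1-1 asil2-1 replicate 1, against 385 to 740 CPM without the allele. All 10 tested seed coat markers, AT2G47670 and TT10 among them, were higher over 11 libraries. The sum and this count thus hold both called genes themselves. Endosperm markers summed to 255 to 315 CPM and 238 CPM, against 244 to 282 CPM, with 7 of 8 higher. Endothelium markers summed to 61.9 to 158 CPM and 97.9 CPM, against 76.8 to 148 CPM, with 0 of 5 higher. Embryo markers, PLT1 among them, summed to 1360 to 1460 CPM and 818 CPM, against 1250 to 1690 CPM, with 5 of 13 higher. No marker was at 0 in all 12 libraries. The part of maternal tissue in the rises of AT2G47670, TT10 and all other called genes, TBL38 included, was not tested. In such bulk samples more cells of a type and more RNA per cell cannot be told apart.

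The light harvesting and photosystem list had 34 of 38 members above 0 over 11 libraries and 31 of 38 over 12, with medians of 0.07 and 0.05 and no call. Over 11 libraries 35 of 38 were higher in asil1-1 over Col-0 (median 0.12). In asil1-1 asil2-1 over asil2-1 only 20 of 38 were higher (median 0.004). The cell wall esterification list had TBL38 as its only call and a median of -0.04 over 13 members (-0.09 over 12 libraries). The trihelix list had ASIL1 as its only call among 6, with GT-1 at 0.38 (adjusted p = 0.265). Calls were 0.313% of all tested models over 11 libraries and 0.0227% over 12. No member was called in the following lists, whose medians are given over 11 and 12 libraries. They were maturation repressors (-0.01 and -0.04), carbon fixation (0.03 and -0.01), chlorophyll synthesis and greening (-0.01 and -0.06) and SPL factors and microRNA (-0.09 and -0.12). The others were cell cycle (-0.01 and -0.09), heat shock (0.26 and 0.335) and wound, touch and cold genes (0.00 and -0.03). Of the cell cycle list 8 of 24 members were higher over 11 libraries and 2 of 24 over 12.

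**Figure D4:**
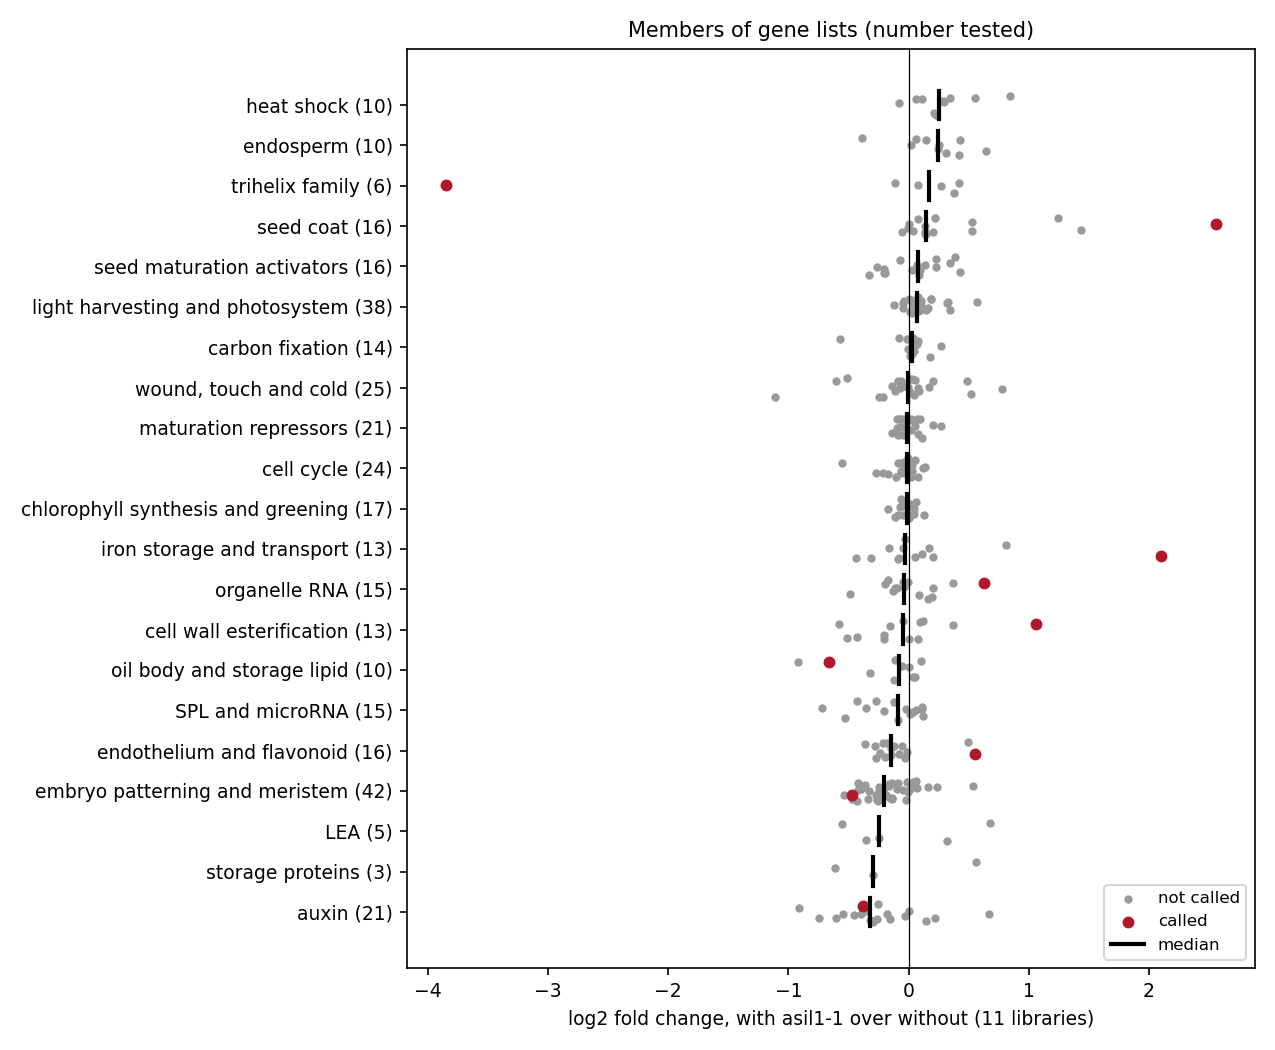
Log2 fold change of each tested list member with asil1-1 over without, over 11 libraries (horizontal axis), by gene list (vertical axis, number tested in brackets). Black bars are list medians and red points passed an adjusted p of 0.05. The lowest median is that of auxin genes at -0.32.

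The 2 comparisons within the main effect share no library. In asil1-1 over Col-0, 29 of 17866 models were called over 11 libraries (0.162%), and in asil1-1 asil2-1 over asil2-1, 6 (0.0336%). Over 12 libraries they were 3 (0.017%) and 2 (0.0113%). Across the 9877 models with a mean log2 CPM of at least 4, the fold changes of the comparisons correlated at r = 0.0672 over 11 libraries, and 53.6% had the same sign. These are genes of the same libraries and not independent replicates. All 56 called genes had the same sign in both, which their choice on the mean of both favours. In edgeR's quasi-likelihood test the difference between the comparisons had an unadjusted p under 0.05 for 5 of the 56 over 11 libraries. That is close to the share of all tested models, 9.21% (1645 of 17866). After adjustment 0 of the 56 passed. The 5 were ASIL1, TBL38, LRB3, ATMG00160 and CIP111, a calmodulin-interacting ATPase. The change was larger in asil1-1 over Col-0 for 32 of the 56.

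The heat shock list differed most between the comparisons in its median, at -0.33 in asil1-1 over Col-0, with 0 of 10 members higher, and 1.05 in asil1-1 asil2-1 over asil2-1, with 9 of 10 higher. HSP101, a disaggregase, was at -0.41 and 1.23, and the factor HSFA2 at -0.46 and 1.17. The wound, touch and cold list had medians of -0.30 and 0.28. These lists were not tested as sets, and 17 models (0.0952%) were called in the interaction over 11 libraries, against 0 over 12, where 1002 had an unadjusted p under 0.05.

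A further comparison of the allele, in libraries outside the 12, is asil1-1 asil2-2 over asil2-2. There the double mutant is of mixed background and asil2-2 of Ler, so ecotype differs with the allele. Of 18269 models 446 (2.44%) were called in it, 345 higher (1.89%) and 101 lower (0.553%). Of the 56 genes called in the Columbia libraries, 52 had the same direction and 21 were called in that direction, 19 rises and 2 falls, against 0 in the opposite one. Of the 49 rises 46 were higher there and of the 7 falls 6 were lower, while 48.2% of all models were higher. In this comparison asil1-1 asil2-2 replicate 2 stood apart, with 1.49 M counts and a highest correlation of 0.875 with any other library. The direction was the same for 52 of the 56 without it, without asil1-1 asil2-1 replicate 1 and without both. In these fits 15, 33 and 32 of the 56 were called, among 278, 1106 and 744 calls over all models. Without asil2-2 replicate 1, 2 or 3, 11, 12 and 13 of the 56 were called, among 304, 204 and 212 calls over all models. ASIL2 measured 4.49, 0 and 13.5 CPM in asil1-1 asil2-2 and 9.79, 9.58 and 9.9 CPM in asil2-2. FER2 measured 54.2, 41.5 and 43.4 CPM in asil1-1 asil2-2 and 9.67, 9.58 and 9.41 CPM in asil2-2, a log2 fold change of 2.29 ± 0.19 (adjusted p = 8.01e-08), here scaled over all 21 libraries. AT1G62060 measured 26.1, 19.1 and 42.6 CPM in asil1-1 asil2-2 and 0.597, 1.83 and 0.974 CPM in asil2-2, a log2 fold change of 4.72 ± 0.62. TBL38 rose by 2.04 ± 0.22, LRB3 by 2.01 ± 0.32 and AT4G40000 by 0.86 ± 0.14, and PLT1 fell by 1.04 on the log2 scale (SE 0.19).

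The 4 genes with the opposite sign were AT2G36570, FOLT1, PMD1 and AT1G71250, none of them called there. FOLT1 measured 60.8, 15.8 and 49.6 CPM in asil1-1 asil2-2 and 63.1, 64.4 and 55.7 CPM in asil2-2, and its log2 fold change was -0.46 with all libraries and -0.15 without asil1-1 asil2-2 replicate 2. That of AT2G36570 was 0.96 and 0.38. These genes and the next 6 are named because of these counts, after their values were seen. Of the 56, 6 were called in Ler over Col-0, where 4.96% of all models were: FOLT1, TT10, AT2G47670, AT1G71250, AT4G11120 and AT4G33600. In asil1-1 asil2-2 over asil2-2, ecotype and allele cannot be told apart for these or for the others of the 56. The median of the 49 rises was 0.64 in asil1-1 asil2-2 over asil2-2 and 0.20 in Ler over Col-0. On chromosome 1, which holds ASIL1, lay 30.9% of the called nuclear genes and 26.3% of those tested, and no called gene lay within 1000 kb of ASIL1. The nearest was NIK3, at 2201 kb.

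**Figure D5:**
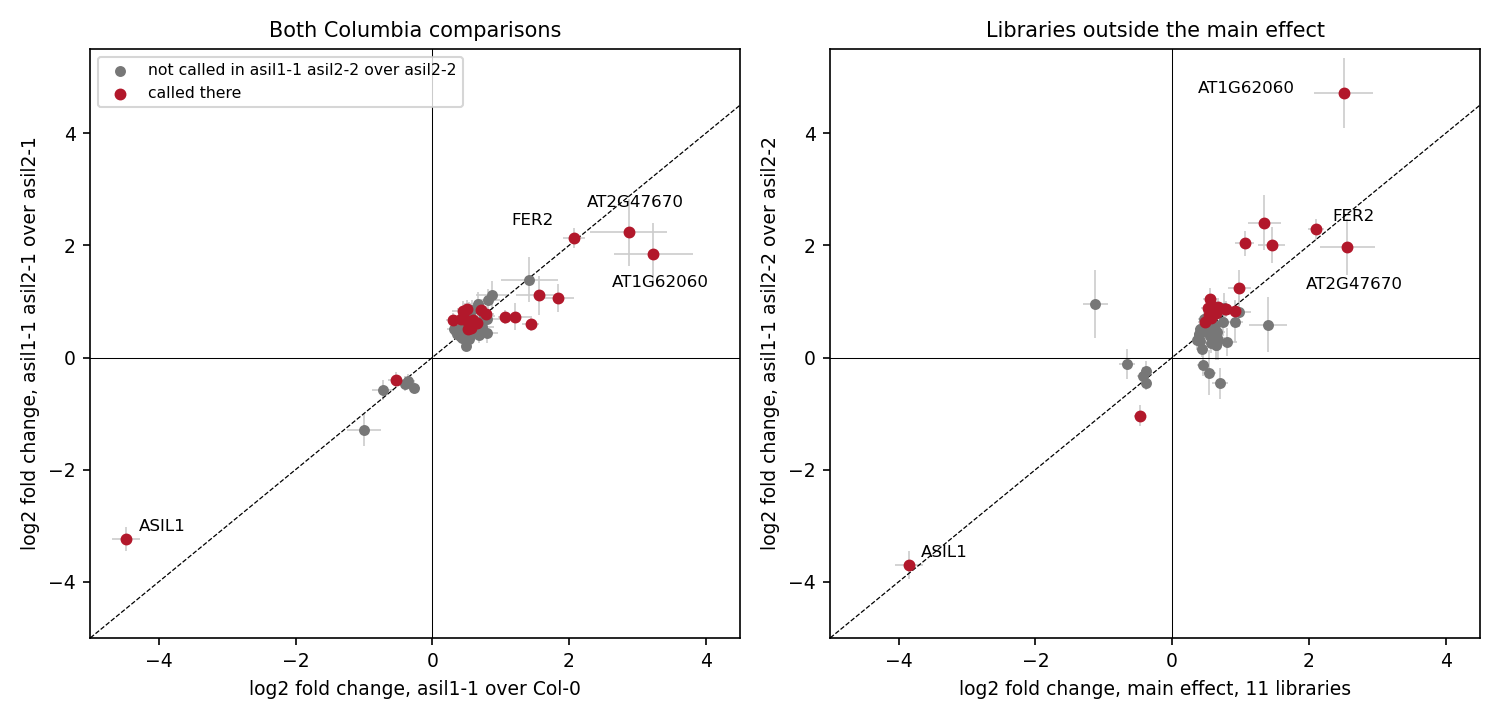
Log2 fold changes of the 56 genes called over 11 libraries, with SE. On the left, asil1-1 over Col-0 (horizontal) against asil1-1 asil2-1 over asil2-1 (vertical), and on the right the main effect (horizontal) against asil1-1 asil2-2 over asil2-2 (vertical). On the right 52 of 56 have the same sign on both axes, and the 21 red points were called in asil1-1 asil2-2 over asil2-2.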

How the data were processed

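RNA was measured in hand-dissected embryos, and read counts per gene model were deposited by the authors as 1 table per library, listing models with reads. Per the submitters' processing notes, Bowtie 0.12.7, TAIR10 and edgeR 3.0.8 were used. How reads were counted, by strand or with several matches, is not stated, so overlapping and near-identical genes can share reads. Tables were joined into 26496 models with 0 where unlisted; 26100 matched TAIR10.1.

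The main effect was fitted as asil2-1 plus asil1-1 in edgeR 4.0.16 (R 4.3.3): filterByExpr by genotype (minimum count 10, total 15), TMM, quasi-likelihood test, Benjamini-Hochberg over all tested models, threshold 0.05. The comparisons within it used 4 genotype groups, and asil1-1 asil2-2 over asil2-2 and Ler over Col-0 used 7 groups over 21 libraries. SE is |log2 fold change| over the root of F. Alternatives used DESeq2 1.42.0 and limma 3.58.1. The scripts were tested on simulated data. Genes were named by rule: ASIL1 and ASIL2, the 15 largest rises and falls over 12 libraries and 10 further over 11 (mean log2 CPM at least 1), up to 4 called members of each of 21 lists (405 of 442 symbols matched) and the 5 lowest interaction p. Genes, lists and rules were chosen with earlier results of these data known, and uncalled list members named as examples were picked after their values were seen. Python 3.11.15, pandas, numpy and matplotlib made tables and figures. No 2 replicates were identical.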

Additional observations from a re-analysis of the deposited data

Results flagged for a closer look

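In 3 of 58 groups of 6 libraries examined over 29 named genes, 1 library lay apart from the others by more than the Dixon limit of 0.625 (gap over range, on log2 CPM). Chance gives about 1 in 20. AT2G36570 measured 0.398 CPM in asil1-1 asil2-1 replicate 1, a gap of 0.805 of the range of the 6 libraries with asil1-1. LAX2 measured 64.1 CPM in the same library, a gap of 0.636. ERF2, an ethylene response factor, measured 24.4 CPM in asil1-1 replicate 2, a gap of 0.667.

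By the interaction term in edgeR's quasi-likelihood test, the effect of asil1-1 differed with the asil2-1 label for 4 named genes over 11 libraries. It did so for none of them over 12, where all had an adjusted p of 0.48. These 4 are among the 5 genes named for the lowest interaction p over 12 libraries. The 11 libraries are part of those 12, so the result over 11 is not independent of that choice. Of all 17866 tested models 17 (0.0952%) passed over 11 libraries. DREB2A, a factor of drought and heat responses, measured 87.6, 119 and 137 CPM in asil1-1 asil2-1, 65.4, 65.3 and 74.3 CPM in asil1-1, 51.6, 39.7 and 54.7 CPM in asil2-1 and 87.7, 104 and 173 CPM in Col-0. Its log2 fold change was 2.22 higher with asil2-1 than without (adjusted p = 0.0149). The difference was -0.92 for the mitochondrial model ATMG00570 (adjusted p = 0.0172), 3.01 for AT3G26140 (adjusted p = 0.0371) and 1.39 for ERF2 (adjusted p = 0.0371).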

How the results depend on the processing

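ASIL1 and FER2 were called in all 36 alternative fits of the main effect, with log2 fold changes of -4.24 to -3.69 and 2.05 to 2.27 and adjusted p up to 2.02e-05 and 7.76e-05. TBL38 was called in 23 (adjusted p up to 0.330) and AT4G40000 in 24 (up to 0.203), and these 4 genes kept their direction in each. The count of 4 was 4 with RLE scaling, 5 with 4 genotype groups, 4 without the asil2-1 term and 3 without the locus AT5G18610 (added after the data were seen). It was 2 with no filter on low counts, 13 with all 21 libraries, 66 with DESeq2 and 83 with limma-voom and library weights, of which 13, 37 and 55 in the last 3 were among the 56. Over 11 libraries, in fits added after the data were seen, it was 56 with RLE scaling, 74 with 4 genotype groups and 172 with DESeq2. The cause was not tested. Leaving out 1 library gave 2 to 56 over 12, with 56 without asil1-1 asil2-1 replicate 1, and 16 to 60 over 11, lowest without asil1-1 asil2-1 replicate 2 or Col-0 replicate 1 (16 and 18).

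With DESeq2, all 21 libraries and limma-voom, asil1-1 over Col-0 had 14, 6 and 54 calls, asil1-1 asil2-1 over asil2-1 had 77, 5 and 81, and the interaction had 23, 2 and 48. Leaving out 1 library gave 3 to 29, 2 to 6 and 0 to 17, the highest each time without asil1-1 asil2-1 replicate 1. Calls in asil1-1 asil2-2 over asil2-2 were 868 with DESeq2, 844 with limma-voom, 744 without both libraries that stand apart (asil1-1 asil2-1 replicate 1 and asil1-1 asil2-2 replicate 2) and 204 to 1106 when 1 library was left out. It was 1106 without asil1-1 asil2-1 replicate 1, 788 and 278 without asil1-1 asil2-2 replicate 3 or 2, and 204 and 212 without asil2-2 replicate 2 or 3.

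The labels tie no replicate number to a shared batch, and 7 of 18 same-numbered pairs correlated over 0.1 (-0.131 to 0.193), so no pairing was used. In the data 10 of 12 libraries correlated best with their own number, a hint that numbers share something. A replicate block gave 2 calls over 12 libraries, without TBL38 (adjusted p = 0.0749) and AT4G40000 (adjusted p = 0.0644), and 66 over 11.

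The filter on low counts left 3 of 8 storage protein genes and 5 of 14 LEA genes to test.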
